A study of Tachysurus fulvidraco x Tachysurus vachelli with 6 samples.

Results

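The acute-phase, iron and antimicrobial genes of the liver were taken as the 67 genes, of 28288 in the expression table, whose deposited description held 1 of 16 search terms. The iron terms were transferrin, ferritin, ferroportin, ceruloplasmin, heme oxygenase, haptoglobin and hemopexin. The acute-phase terms were pentraxin, C-reactive, serum amyloid and fetuin. The antimicrobial terms were lysozyme, cathelicidin, hepcidin, bactericidal permeability and liver expressed antimicrobial. Of the 71 genes found in this way, 4 that the deposited KEGG column placed among the complement and coagulation cascades were left out, and the only haptoglobin gene (hp) was 1 of them. The terms C-reactive, cathelicidin, hemopexin and ferroportin matched no description. Another 4 members were found only because "acetyl-transferring" contains the letters of transferrin. They are kinases and a phosphatase of pyruvate dehydrogenase, not iron genes, and are described apart from the other 63.

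The livers came from juvenile hybrid yellow catfish, bred from Tachysurus fulvidraco females and Pseudobagrus vachellii males. T_liver fish ate a diet with 4 g/kg of A. senticosus (Siberian ginseng, a plant used as a feed additive) for 56 days, and C_liver fish ate the diet with 0 g/kg for the same time, and all were starved before sampling. The question of the comparison was which liver transcripts differ at this diet level. Poly(A) RNA was sequenced in 3 libraries per group, after RNA of each group had been mixed. How many fish a library holds is not given in the sources used here, so n is the number of libraries, and p-values measure only the spread between libraries, which may be technical.

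The liver makes most of the proteins described here and secretes many of them into the blood. Transferrin carries iron in plasma, transferrin receptors take it into cells, ferritin stores it, ceruloplasmin oxidizes it, heme oxygenase frees it from heme, and the peptide hormone hepcidin lowers iron export from cells by acting on ferroportin. During infection or injury the liver changes its output of such proteins, and pentraxins, which include serum amyloid P component, bind microbial and damaged-cell surfaces. Lysozymes cut bacterial cell walls, and bactericidal permeability-increasing proteins (BPI) bind bacterial lipopolysaccharide.

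Counts summed to between 44153673 and 51459627 per library, with 16719 to 17818 genes detected. Levels of 1 gene across libraries are given as CPM, the count relative to the TMM-scaled library total, and levels of different genes are compared in FPKM, which also divides by length. The liver label was checked on 23 hepatocyte marker genes, of which 22 passed the filter of a mean FPKM of at least 1. Their summed level was 87735 to 126031 CPM in T_liver and 95071 to 145240 CPM in C_liver. It was led by 1 apolipoprotein A-I-2-like gene, LOC113652856, with 32734 to 68454 CPM in T_liver and 45665 to 79888 CPM in C_liver. Of the tested markers 11 were higher and 11 lower in T_liver, and 2 were DE genes, both lower there (fabp1 and LOC113658315). C_liver 3 stood apart, being the highest of the 6 libraries for 25.2% and the lowest for 26.8% of all tested genes. Its hemoglobin and other red blood cell markers, of which 14 of 27 were tested and 1 had no count, summed to 4416 CPM, against 473 to 2855 CPM in the T_liver libraries and 813 and 870 CPM in the other C_liver libraries. The summed level of exocrine pancreas markers did not overlap between groups. It was between 352 and 1086 CPM in T_liver and between 73.9 and 289 CPM in C_liver, and 5 of 27 markers had no count. All 20 tested markers had positive log2 fold changes (against 49.6% of all tested genes), and 15 were DE genes higher in T_liver (against 1.49%). For 11 every T_liver library lay above every C_liver library (against 5.96% of all tested genes), and 9 overlapped between groups. T_liver 1 was the highest library for 17 of these 20 markers. This sum therefore separated the groups as the members without overlap did, of which 2 were higher and 4 lower in T_liver. Its part in those results, and in the members that were highest in T_liver 1, was not tested.

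Among the 67 members, 42 passed the filter and were tested, 16 had counts but lay below it, and 9 had no count. A DE gene was defined by the study's thresholds, a log2 fold change of 1 or more in either direction with an unadjusted P under 0.05, here from edgeR's quasi-likelihood test over all 11521 tested genes. By this rule 1 of the 42 members was lower in T_liver (2.38%), the LEAP2 gene LOC113635119, and 0 were higher. Over all tested genes 3.11% were DE genes, 1.61% lower and 1.49% higher in T_liver. An unadjusted P under 0.05 was reached by 1 member, against 6.64% of all tested genes. With Benjamini-Hochberg adjustment over all tested genes edgeR's quasi-likelihood test left 0 members and 0% of all genes under 0.05, of which 765 had an unadjusted P under 0.05. Under 0.05 after adjustment were 38 genes by DESeq2 and 14 by the exact test of edgeR, with 0 members in both lists. The adjusted p-values of the 42 members lay between 0.676 and 0.993.

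The members leaned to neither group by much. Of the 42, 25 were higher in T_liver and 17 lower (59.5% higher, against 49.6% of all tested genes), and their median log2 fold change was 0.23, beside -0.00 over all genes. A log2 fold change of 1 or more in either direction was found in 2 members (4.76%, against 7.1% of all genes). For 36 members the groups overlapped in CPM. Every T_liver library lay above every C_liver library in 2 members (4.76%, against 5.96% of all genes) and below in 4 (9.52%, against 7.1%), and non-overlap in either direction covered 13.1% of all genes. Exact 2-sided permutation tests gave p = 0.1 for these 6, the smallest value that 3 libraries against 3 allow. Groups without overlap must give this value, so it adds nothing to the non-overlap.

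**Figure D1:**
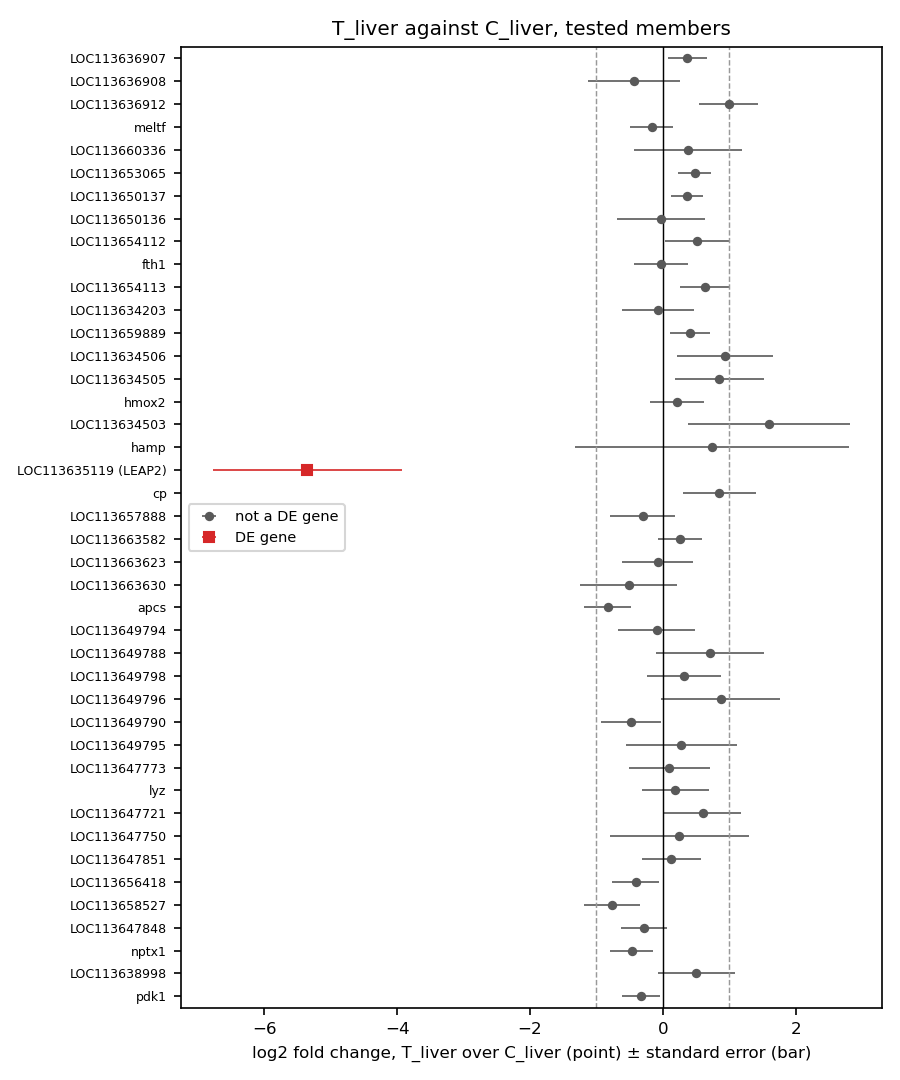
Log2 fold change of T_liver over C_liver (x axis) for the 42 tested members (y axis, grouped by role), with points for the estimate and bars for its standard error. The square marks the only DE gene, LEAP2, at -5.35. The dashed lines at -1 and 1 mark the fold threshold, and only LEAP2 and the heme oxygenase LOC113634503, at 1.60, lie outside them.

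The antimicrobial and hormone-like peptides of the liver came first. Liver expressed antimicrobial peptide 2 (LEAP2, LOC113635119, scaffold NW_020848182.1, 1880886 to 1882691, minus strand) encodes a cationic peptide that in mammals also blocks the ghrelin receptor. It had 0, 32 and 54 counts in T_liver 1, 2 and 3, against 259, 466 and 2287 counts in C_liver 1, 2 and 3. In CPM these were 0, 0.704 and 1.00 in T_liver and 4.84, 8.48 and 57.7 in C_liver. All T_liver libraries lay below all C_liver libraries, and T_liver 1 had no count, which allows up to 0.0716 CPM (3 counts). The means were 0.569 ± 0.515 CPM in T_liver and 23.7 ± 29.5 CPM in C_liver (SD, n = 3 each). LEAP2 fell by 5.35 on the log2 scale (SE 1.42, unadjusted P = 0.00635, adjusted p = 0.676 by edgeR's quasi-likelihood test). The exact permutation p was 0.1, as it must be without overlap. It was a DE gene under all 16 alternatives, with adjusted p-values from 0.174 to 0.946. Its FPKM was 0.0001, 0.435 and 0.762 in T_liver, against 3.60, 6.09 and 33.4 in C_liver. LEAP2 thus passed the filter only through C_liver, and the stricter minimum of 5 only through C_liver 3. The filter settings are therefore no support of their own for its call. C_liver 3 set much of the size, since the log2 fold change was -3.51 without it. In livers sequenced whole, fewer cells of a type and less RNA per cell cannot be told apart.

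Copies described with a hyphen, as liver-expressed antimicrobial peptide 2-like, were not members but bear the same name. LOC113644649 had 26.6, 121 and 48.8 CPM in T_liver, against 43.6, 201 and 75.1 CPM in C_liver. LOC113640046 had 8.00, 18.6 and 6.87 CPM in T_liver, against 27.5, 12.4 and 13.2 CPM in C_liver. The groups overlapped in both copies, neither was a DE gene, and their log2 fold changes were -0.70 (SE 0.71) and -0.67 (SE 0.48). Leaving out 1 library moved them between -1.48 and 0.14 and between -1.25 and -0.20, and LOC113640046 became a DE gene without T_liver 2 (-1.25).

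Hepcidin (hamp, scaffold NW_020847818.1, 726084 to 728177, minus strand) varied between the libraries of both groups. It had 1552, 19 and 4 counts in T_liver 1, 2 and 3, against 784, 430 and 0 counts in C_liver 1, 2 and 3. These were 37.1, 0.418 and 0.0743 CPM in T_liver and 14.6, 7.83 and 0 CPM in C_liver, where 0 counts allow up to 0.0757 CPM. One library of T_liver was thus the highest of all, the other T_liver libraries lay below C_liver 1 and 2, and T_liver 3 and C_liver 3 could not be ranked at this depth. The means were 12.5 ± 21.3 CPM in T_liver and 7.49 ± 7.32 CPM in C_liver (SD, n = 3 each). With a log2 fold change of 0.74 (SE 2.06, adjusted p = 0.937 by edgeR's quasi-likelihood test) no difference was detectable. Without T_liver 1 the value was -4.94. Without both T_liver 1 and C_liver 3 it was -5.53, past the DE thresholds (unadjusted P = 0.00131, adjusted p = 0.65 by edgeR's quasi-likelihood test). These libraries, the highest and the lowest for hepcidin, were left out after seeing the data. The gap between the remaining libraries follows from that choice. LEAP2 and hepcidin were opposite in T_liver 1 and C_liver 3. T_liver 1 was highest for hepcidin and without a count for LEAP2, and C_liver 3 was highest for LEAP2 and without a count for hepcidin.

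**Figure D2:**
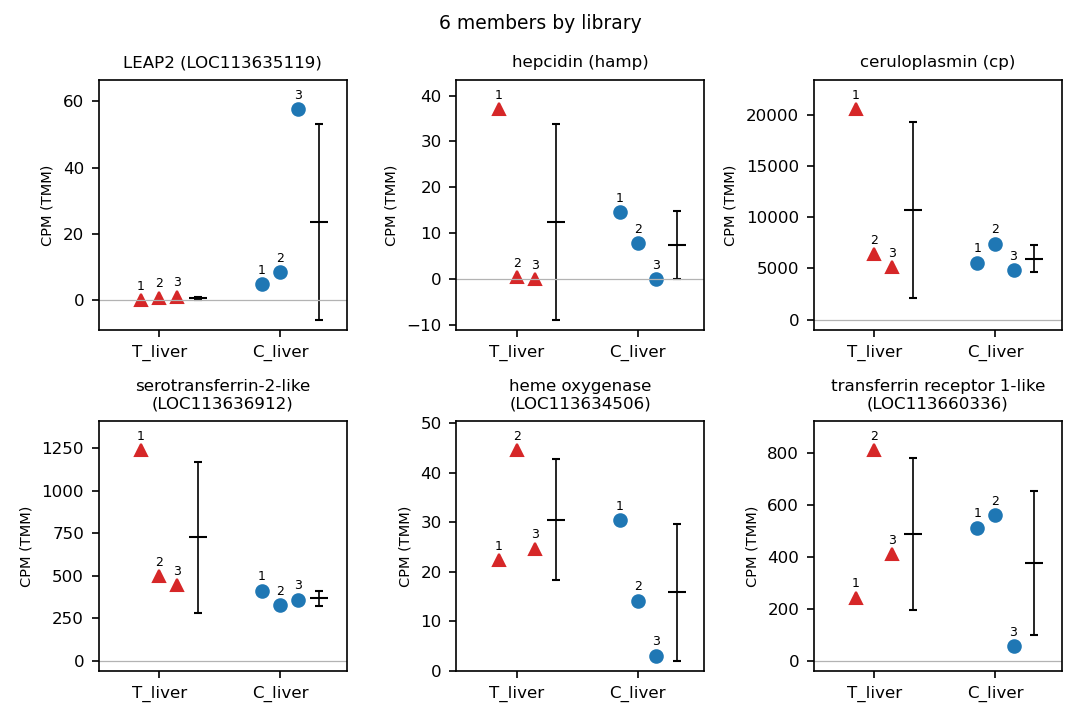
CPM (TMM-scaled, y axis) of 6 members in each library, T_liver as triangles and C_liver as circles, numbered by library, with the group mean and SD as a bar beside them. LEAP2 does not overlap between groups, at 0 to 1.00 CPM in T_liver and 4.84 to 57.7 CPM in C_liver. T_liver 1 stands apart for hepcidin, ceruloplasmin and serotransferrin-2, and C_liver 3 is lowest for heme oxygenase LOC113634506 and for the transferrin receptor.

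Transferrins were the most abundant members. LOC113636907, described as transferrin, had a mean of 5823 FPKM over the 6 libraries, followed by ceruloplasmin at 2395 FPKM and the second transferrin copy LOC113636908 at 2272 FPKM. Together with LOC113636912, described as serotransferrin-2-like, the transferrin copies lie within 58234 bp on scaffold NW_020848227.1 (41861 to 100094, all on the minus strand). How reads shared by such copies were counted is not given in the sources used here, so the split between them is uncertain.

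LOC113636907 had 19145, 12766 and 15488 CPM in T_liver, against 9429.7, 12349 and 14794 CPM in C_liver. T_liver 1 was highest and C_liver 1 lowest, the groups overlapped, and the log2 fold change was 0.37 (SE 0.29). LOC113636908 had 6973, 3111 and 3973 CPM in T_liver, against 2335, 3068 and 13500.1 CPM in C_liver. It was highest in C_liver 3, with a log2 fold change of -0.43 (SE 0.69) that was 0.80 without this library. The ratio of LOC113636907 to LOC113636908 was 2.75, 4.10 and 3.90 in T_liver and 4.04, 4.02 and 1.10 in C_liver, so C_liver 3 was the library with nearly equal CPM of both copies.

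Serotransferrin-2-like LOC113636912 was 1 of the 2 members with all T_liver libraries above all C_liver libraries. It had 1239, 496 and 442 CPM in T_liver, against 411, 326 and 359 CPM in C_liver. The means were 725 ± 445 CPM in T_liver and 365 ± 43.0 CPM in C_liver (SD, n = 3 each). Its log2 fold change of 0.99 (SE 0.44, unadjusted P = 0.0572) stayed just short of both DE thresholds. It passed them without T_liver 2 (1.20) and without T_liver 3 (1.25), and was 0.37 without T_liver 1. Melanotransferrin (meltf), a membrane-anchored relative of transferrin, had 48.5, 75.0 and 98.8 CPM in T_liver, against 86.0, 98.2 and 65.9 CPM in C_liver. Its groups overlapped, with a log2 fold change of -0.17 (SE 0.32), or 0.08 without T_liver 1. A further gene described as transferrin, LOC113642764 on scaffold NW_020848416.1, had no count in any library.

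All 4 transferrin receptor genes were tested, and 3 had positive log2 fold changes. Transferrin receptor protein 2 (LOC113653065), the form that in mammals senses iron-loaded transferrin on hepatocytes, had 157, 110.1 and 117 CPM in T_liver, against 90.1, 88.0 and 95.9 CPM in C_liver. All T_liver libraries lay above all C_liver libraries, with means of 128 ± 25.4 CPM in T_liver and 91.3 ± 4.07 CPM in C_liver (SD, n = 3 each). The difference was 0.48 on the log2 scale (SE 0.25, adjusted p = 0.676 by edgeR's quasi-likelihood test), and it lay between 0.32 and 0.59 under all alternatives, under the fold threshold.

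Other receptors were described as transferrin receptor protein 1-like, the form that brings iron into most cells. Of these, LOC113660336 and LOC113650136 differed more between libraries of a group than between groups. LOC113660336, with a mean of 92.2 FPKM the most abundant receptor, had 242, 810.4 and 410.1 CPM in T_liver, against 511, 559 and 54.8 CPM in C_liver. T_liver 2 was highest and C_liver 3 lowest, 14.8-fold apart, and the log2 fold change of 0.38 (SE 0.81) was -0.18 without T_liver 2 and -0.13 without C_liver 3. The neighbouring copies LOC113650137 and LOC113650136 lie within 22216 bp on scaffold NW_020847885.1. LOC113650137 had 22.1, 23.5 and 30.0 CPM in T_liver, against 20.1, 22.8 and 16.2 CPM in C_liver, and a log2 fold change of 0.36 (SE 0.24). LOC113650136 had 10.2, 26.3 and 6.71 CPM in T_liver, against 8.42, 7.81 and 28.0 CPM in C_liver, with a log2 fold change of -0.03 (SE 0.66). Its highest library was C_liver 3, where LOC113660336 was lowest, and without C_liver 3 its value was 0.83.

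Ferritin genes, whose products form the shell that stores iron, showed no DE gene among 5 tested. The most abundant, the ferritin middle subunit LOC113654112 (mean 904.8 FPKM), had 599, 1343 and 734 CPM in T_liver, against 909.7, 643 and 318 CPM in C_liver. T_liver 2 was highest, C_liver 3 lowest and the groups overlapped, with a log2 fold change of 0.52 (SE 0.48). The second middle subunit gene, LOC113654113, overlaps it by 1389 bp on the same strand, and had 374, 638 and 368 CPM in T_liver, against 384, 313 and 196 CPM in C_liver. Reads in the overlap cannot be assigned to 1 of these genes with certainty. A further middle subunit gene on the opposite strand, LOC113654114, lay below the filter with 0 to 70 counts per library.

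Heavy chain ferritin, a subunit with ferroxidase activity, differed between its genes in C_liver 3. The heavy chain gene fth1 had 485, 662 and 466 CPM in T_liver, against 329, 436 and 879.8 CPM in C_liver. LOC113634203, also described as heavy chain, had 162, 104.9 and 90.9 CPM in T_liver, against 59.2, 83.4 and 233 CPM in C_liver. Both were highest in C_liver 3 and lowest in C_liver 1, while both tested middle subunits were lowest in C_liver 3. As a result the ratio of fth1 to LOC113654112 in CPM was 0.810, 0.493 and 0.635 in T_liver and 0.361, 0.678 and 2.77 in C_liver. LOC113659889, heavy subunit-like, was low at 8.44 to 12.4 CPM in T_liver and 5.32 to 9.80 CPM in C_liver, and was lowest in C_liver 3, as the middle subunits were.

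Heme oxygenase opens the heme ring and releases iron, carbon monoxide and biliverdin, and all 4 tested genes of this name had positive log2 fold changes, although none was a DE gene and the groups overlapped in each. LOC113634506 had 22.3, 44.6 and 24.7 CPM in T_liver, against 30.5, 14.2 and 3.03 CPM in C_liver. Its neighbour LOC113634505 had 17.8, 28.3 and 21.5 CPM in T_liver, against 23.6, 11.2 and 2.62 CPM in C_liver. In both, C_liver 1 was close to the T_liver libraries, and C_liver 3 was lowest.

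The log2 fold changes were 0.94 (SE 0.72) for LOC113634506 and 0.85 (SE 0.67) for LOC113634505. Without C_liver 1, the highest C_liver library for both, they were 1.82 and 1.70, past the DE thresholds. The unadjusted P were 0.0382 and 0.0329 and the adjusted p 0.798 for both, by edgeR's quasi-likelihood test. DE genes over all tested genes also rose in that setting, from 358 to 445. Without C_liver 3 the log2 fold changes of the 2 copies were 0.45 and 0.38. The ratio of LOC113634506 to LOC113634505 stayed between 1.15 and 1.58 in T_liver and between 1.15 and 1.29 in C_liver. The counts of these copies, described alike, thus varied together from library to library. How reads shared by them were counted is not given, so the split between these copies is uncertain. The third copy, LOC113634503, had 2.10, 4.66 and 1.82 CPM in T_liver, against 2.05, 0.746 and 0 CPM in C_liver, with a log2 fold change of 1.60 (SE 1.22). It overlaps LOC113634487, a target of Myb protein 1-like gene, on the opposite strand by 2839 bp, and without knowledge of strand in the counting its reads are uncertain. These 3 copies lie within 12497 bp on scaffold NW_020848156.1 (690226 to 702722).

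Heme oxygenase 2 (hmox2), the form usually expressed at a steady level in mammals, had 8.69, 6.69 and 10.3 CPM in T_liver, against 11.8, 6.06 and 4.26 CPM in C_liver. Its log2 fold change was 0.21 (SE 0.41), or -0.06 without C_liver 3. The gene named hmox1, after the form that stress induces in mammals, lay below the filter with 0, 33 and 47 counts in T_liver, against 101, 32 and 54 counts in C_liver. All 4 tested genes were lowest in C_liver 3, the library with the highest red blood cell marker sum, while T_liver 2, with the next highest sum (2855 CPM), was highest for 3 of them. The part of blood content in these values was not tested.

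**Figure D3:**
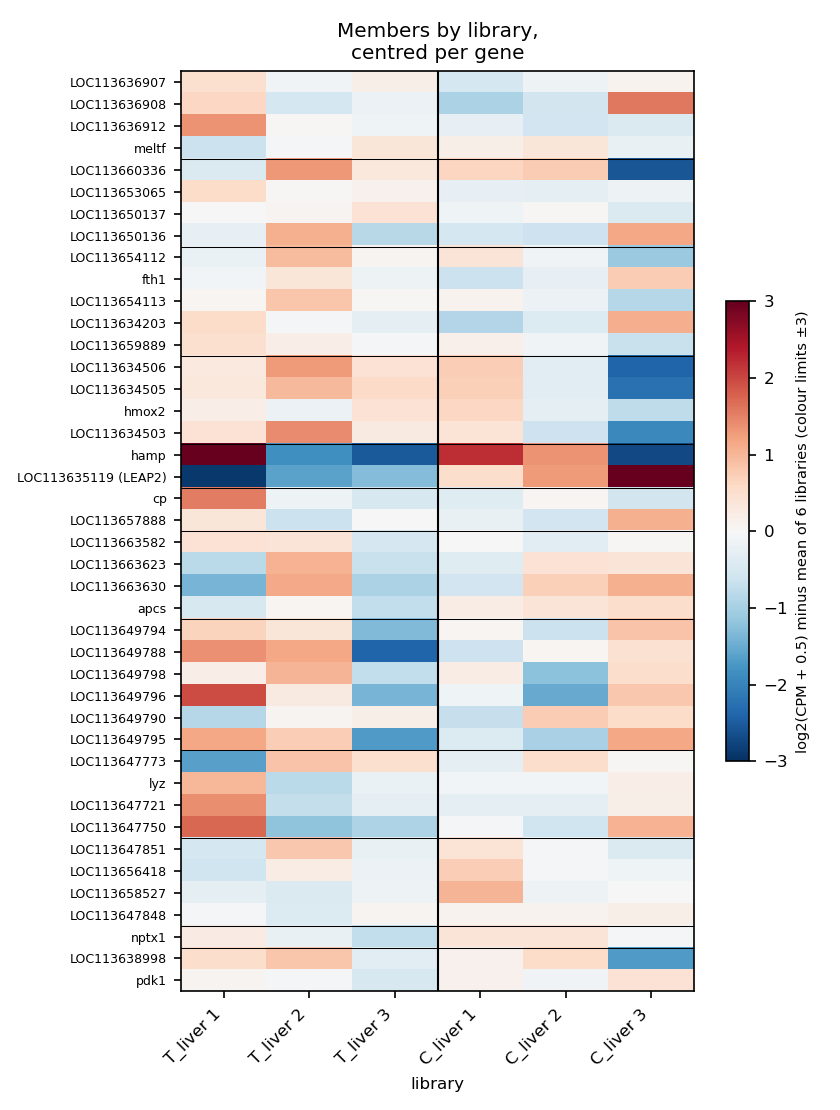
Log2(CPM + 0.5) of the 42 tested members (y axis) in the 6 libraries (x axis), each centred on its mean over the libraries, with red above and blue below that mean and colours ending at -3 and 3. The vertical line divides the groups. T_liver 1 is red for ceruloplasmin (cp) and 3 of the 4 lysozymes, and C_liver 3 is blue for all 4 heme oxygenases and LOC113660336.

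Ceruloplasmin (cp), a copper protein that oxidizes iron for loading onto transferrin and is an acute-phase protein in mammals, had 20532, 6364 and 5092 CPM in T_liver, against 5535, 7392 and 4837 CPM in C_liver. The means were 10663 ± 8570.3 CPM in T_liver and 5921 ± 1321 CPM in C_liver (SD, n = 3 each). T_liver 1 was far above the other 5 libraries, which overlapped. The log2 fold change of 0.85 (SE 0.55) came from that library, as it was -0.04 without T_liver 1 and -0.16 without both T_liver 1 and C_liver 3. Fetuin-B-like LOC113657888, a secreted inhibitor of proteases that lies on the same scaffold within 33616 bp, had 2089.9, 1037 and 1605 CPM in T_liver, against 1373, 1087 and 3383 CPM in C_liver. It was highest in C_liver 3, and its groups overlapped.

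Haptoglobin (hp), the hemoglobin-binding acute-phase protein that the KEGG term left out, showed the same T_liver 1. It had 9169 CPM in T_liver 1, with 127 and 1923 CPM in T_liver 2 and 3, against 109, 227 and 313 CPM in C_liver. It was a DE gene with a log2 fold change of 4.11 (SE 1.32, unadjusted P = 0.0159, adjusted p = 0.676 by edgeR's quasi-likelihood test), although T_liver 2 lay among the C_liver libraries. The value was between 2.28 and 4.68 with 1 library left out, and it was a DE gene under 10 of 16 alternatives. The call was lost without T_liver 1, without C_liver 1, without both T_liver 1 and C_liver 3, with limma at either pseudocount and with a replicate block. Adjusted p-values of hp ran from 0.00535 to 0.998 over the alternatives, so at least 1 left it under the P threshold after adjustment.

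The 4 genes described as serum amyloid P-component-like lie within 41202 bp on scaffold NW_020848112.1 (1208620 to 1249821, minus strand), and all were tested. LOC113663582 was the most abundant (mean 686.6 FPKM), with 851, 821 and 443 CPM in T_liver, against 624, 494 and 646 CPM in C_liver. Its log2 fold change was 0.26 (SE 0.33). LOC113663623 had 85.4, 311 and 94.9 CPM in T_liver, against 117, 203 and 199 CPM in C_liver. LOC113663630 had 23.7, 141 and 32.4 CPM in T_liver, against 42.4, 104 and 133 CPM in C_liver. These 2 genes were highest in T_liver 2 and lowest in T_liver 1, and had log2 fold changes of -0.08 (SE 0.54) and -0.51 (SE 0.73). LOC113663630 passed the DE thresholds without T_liver 2 (-1.71), and LOC113663623 was -0.93 there but above 0 without T_liver 1 (0.23), T_liver 3, C_liver 2 or C_liver 3.

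The fourth, named apcs, was low (mean 3.46 FPKM) but separated the groups. It had 2.55, 3.96 and 2.04 CPM in T_liver, against 4.44, 5.10 and 5.63 CPM in C_liver. The means were 2.85 ± 0.991 CPM in T_liver and 5.06 ± 0.593 CPM in C_liver (SD, n = 3 each). All T_liver libraries lay below all C_liver libraries, with a log2 fold change of -0.83 (SE 0.35, unadjusted P = 0.0511) that stopped short of the DE thresholds and passed them without T_liver 2 (-1.13). The 4 copies of this cluster thus differed in the sign of their values, and the difference between copies was not tested.

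The pentraxins formed a cluster of copies. Of 11 genes described as pentraxin fusion protein-like, pentraxin-4 or PTX3, 9 lie within 138056 bp on scaffold NW_020847880.1 (543416 to 681471), and 6 of these were tested. The most abundant, LOC113649794 (mean 575.8 FPKM), had 869.6, 700.4 and 217 CPM in T_liver, against 571, 349 and 985 CPM in C_liver. Its log2 fold change was -0.09 (SE 0.58), or 0.31 without T_liver 3 and 0.37 without C_liver 3. The second, LOC113649788, had 611, 532 and 44.2 CPM in T_liver, against 153, 246 and 325 CPM in C_liver. Both were lowest in T_liver 3, and without T_liver 3 LOC113649788 became a DE gene.

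The other 4 tested copies (LOC113649798, LOC113649796, LOC113649790 and LOC113649795) had 2.23 to 82.2 CPM in T_liver and 3.64 to 58.5 CPM in C_liver, and overlapped between groups. Summed over the family, pentraxin CPM was 1599.8 in T_liver 1, 1358 in T_liver 2 and 308 in T_liver 3, against 796, 643 and 1429 in C_liver. T_liver 3 was the lowest library, and the other T_liver libraries lay near C_liver 3. Pentraxin-4 (LOC113649789) had 0 to 37 counts per library, and ptx3, in mammals made mainly outside hepatocytes, had 14 counts in C_liver 1 alone. Another 3 copies had no count.

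Of the 9 neuronal pentraxins, best known from synapses, and other proteins with a pentraxin domain, 1 was tested and 5 had no count. Neuronal pentraxin-1 (nptx1) had 11.4, 8.05 and 5.48 CPM in T_liver, against 12.7, 12.6 and 9.19 CPM in C_liver. Only T_liver 1 reached the range of C_liver, and the log2 fold change was -0.47 (SE 0.32). The other 3 had at most 145 counts in a library.

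**Figure D4:**
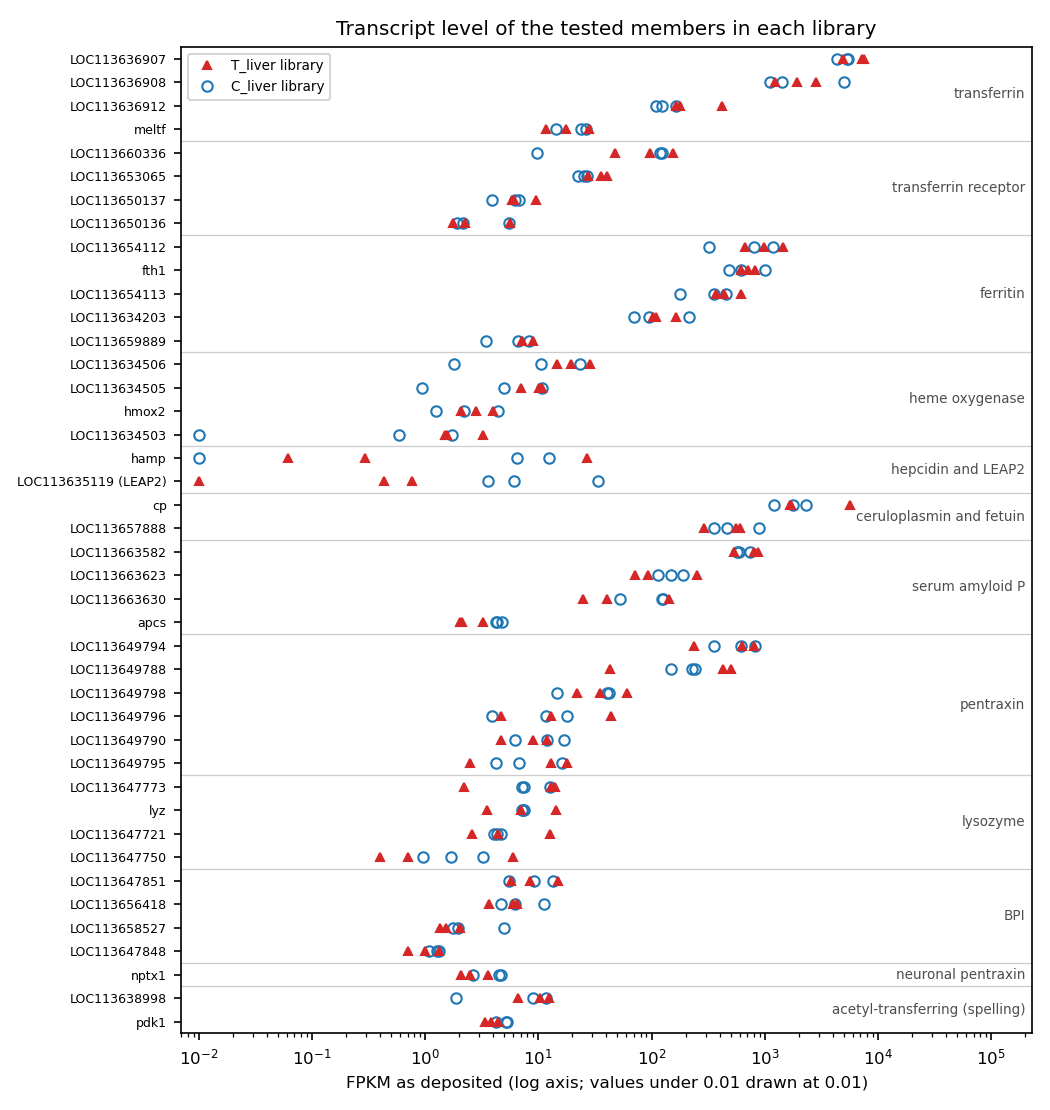
FPKM as deposited (log x axis, values under 0.01 drawn at 0.01) of the 42 tested members (y axis, grouped by role), with triangles for T_liver and circles for C_liver libraries. Levels run from transferrin LOC113636907, with a mean of 5823 FPKM, to genes near 1 FPKM. The T_liver and C_liver points overlap for 38 of the 42 genes in this unit, for which the share over all tested genes was not counted.

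The 4 lysozyme genes were low, with means of 2.16 to 9.44 FPKM, and had positive log2 fold changes with overlapping groups. The most abundant, the goose-type gene LOC113647773, had 2.72, 17.7 and 13.5 CPM in T_liver, against 7.88, 14.0 and 9.82 CPM in C_liver. T_liver held both its highest and its lowest library, and the log2 fold change of 0.10 (SE 0.61) became negative with limma, with a replicate block and without T_liver 2 (-0.36), T_liver 3 or C_liver 1. The c-type lysozyme (lyz) had 10.5, 2.66 and 4.31 CPM in T_liver, against 4.72, 4.79 and 5.85 CPM in C_liver. LOC113647721, goose-type, had 19.98, 4.24 and 5.83 CPM in T_liver, against 5.82, 5.77 and 8.28 CPM in C_liver. T_liver 2 and 3 lay below every C_liver library for lyz, and T_liver 2 did for LOC113647721, so only T_liver 1 stood clearly above C_liver.

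LOC113647750 had 7.16, 0.506 and 0.725 CPM in T_liver, against 1.74, 1.04 and 4.29 CPM in C_liver. Its T_liver 2 and 3 lay below every C_liver library. Without T_liver 1 its sign changed and it became a DE gene, lower in T_liver. It lies with LOC113647773 and LOC113647721 within 15795 bp on scaffold NW_020847827.1. T_liver 1 was thus the highest library for lyz, LOC113647721 and LOC113647750 and the lowest for LOC113647773. The summed level of granulocyte and macrophage markers, from cells that carry lysozyme, was also highest in T_liver 1, although only 4 of the 10 tested markers were highest there. It was 234, 108 and 159 CPM in T_liver, against 179.6, 118 and 173 CPM in C_liver (10 of 17 tested, 2 without a count). The sum was led by ncf1, while csf1r, the only DE gene among these markers, was lowest in T_liver 1, and their part in the lysozyme values was not tested.

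Bactericidal permeability-increasing proteins had 11 genes, of which 4 were tested and 7 had few counts. The tested genes were also low, with means of 1.12 to 9.52 FPKM. The most abundant, LOC113647851, had 4.51, 12.1 and 5.63 CPM in T_liver, against 9.05, 6.43 and 4.79 CPM in C_liver. Its log2 fold change was 0.13 (SE 0.44), or -0.40 without T_liver 2 and -0.06 without C_liver 3. LOC113658527 had 3.08, 2.77 and 3.44 CPM in T_liver, against 8.42, 3.48 and 3.86 CPM in C_liver. All T_liver libraries lay below, by a narrow margin to C_liver 2, and the log2 fold change of -0.76 (SE 0.42, adjusted p = 0.676 by edgeR's quasi-likelihood test) was -0.24 without C_liver 1.

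LOC113647848 had 2.36, 1.76 and 2.68 CPM in T_liver, against 2.69, 2.73 and 2.85 CPM in C_liver. The groups did not overlap, but T_liver 3 and C_liver 1 were almost equal, and the log2 fold change was -0.28 (SE 0.35). It overlaps the gene LOC113647852 on the opposite strand by 73 bp. LOC113656418 had 6.90, 12.7 and 9.44 CPM in T_liver, against 18.3, 10.5 and 9.77 CPM in C_liver. LOC113658527 and LOC113647848 thus had all T_liver libraries below C_liver in TMM-scaled CPM, but in deposited FPKM the groups overlapped in both, and neither was a DE gene. The BPI genes lie mainly in 2 groups of 5, on scaffold NW_020847828.1 within 53770 bp and on NW_020847977.1 within 54622 bp.

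Among the 4 members found by spelling, 2 were tested. LOC113638998, described as a pyruvate dehydrogenase kinase that holds back the entry of pyruvate into the citric acid cycle, had 29.1, 35.8 and 15.7 CPM in T_liver, against 21.8, 29.2 and 5.78 CPM in C_liver. It was lowest in C_liver 3, and its log2 fold change was 0.50 (SE 0.58). The related kinase pdk1 had 4.81 to 7.35 CPM in T_liver and 6.33 to 9.56 CPM in C_liver. Without these genes 40 members were tested, 24 higher and 16 lower in T_liver, with the same median of 0.23 and the same DE gene.

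The spread of the members within groups was wider than that of most genes. The median SD of log2(CPM + 0.5) within a group was 0.60 in T_liver and 0.67 in C_liver over the 42 members, beside 0.33 in T_liver and 0.35 in C_liver over all tested genes. T_liver 1 and T_liver 2 were each the highest library for 12 members (28.6%, against 17.6% and 14.8% of all tested genes). C_liver 3 was highest for 11 (26.2%, against 25.2%) and lowest for 12 (28.6%, against 26.8%), close to its shares over all tested genes. T_liver 3 was highest for 2 (4.76%, against 17.0%) and C_liver 2 for 1 (2.38%, against 13.5%). All members together held 5.20%, 2.80% and 3.39% of the counts in T_liver, against 2.57%, 3.00% and 3.54% in C_liver. The mean share was 3.80% ± 1.25 in T_liver and 3.04% ± 0.486 in C_liver (SD, n = 3 each). The difference was smaller than the SD of T_liver, where T_liver 1 was highest, but larger than the SD of C_liver. The shares of the groups overlapped, and the 95% Wilson intervals were at most 0.0131 percentage points wide. Without T_liver 1 and C_liver 3, left out after seeing the data, the DE genes among the members were LEAP2 and hepcidin, both lower in T_liver. For hepcidin this followed from the choice of libraries.

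Genes around these pathways were described from lists. Of 30 iron-handling genes 17 were tested, 8 higher and 9 lower in T_liver, with 0 DE genes and a median log2 fold change of -0.19. The iron exporter ferroportin, deposited as slc40a1, had 402, 218 and 328 CPM in T_liver, against 83.0, 85.4 and 434 CPM in C_liver. C_liver 3 again went against the other C_liver libraries, and the log2 fold change was 0.65 (SE 0.68), or 1.91 and past the DE thresholds without C_liver 3. The metalloreductase steap4 had 652, 104.9 and 85.4 CPM in T_liver, against 89.8, 110.2 and 81.5 CPM in C_liver. Its log2 fold change of 1.58 (SE 0.77) was 0.03 without T_liver 1, the library also highest for cp and hp, and it was a DE gene under 4 of 16 alternatives (without T_liver 2, without T_liver 3, with DESeq2 and with edgeR's exact test). Another metalloreductase, steap3, went the other way, with a log2 fold change of -1.49 (SE 0.76) and overlapping groups. The hepcidin regulators hjv and tmprss6 overlapped between groups, with log2 fold changes of -0.19 (SE 0.28) and 0.13 (SE 0.39).

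Heme synthesis and breakdown held 1 DE gene, lower in T_liver, among 11 tested of 12, with 4 higher, 7 lower and a median log2 fold change of -0.16. This was alas1, the first and rate-limiting enzyme of heme synthesis in the liver, with 140.5, 74.0 and 138 CPM in T_liver, against 234, 151 and 637 CPM in C_liver. All T_liver libraries lay below all C_liver libraries, with a log2 fold change of -1.53 (SE 0.57, unadjusted P = 0.0302, adjusted p = 0.676 by edgeR's quasi-likelihood test). It was a DE gene under 11 of 16 alternatives, and with 1 library left out its log2 fold change lay between -1.89 and -0.70. The call was lost without C_liver 3 and without each T_liver library in turn. For cpox and fech, too, all T_liver libraries lay below all C_liver libraries, as for 7.1% of all tested genes. Their log2 fold changes were -0.94 (SE 0.39) and -0.37 (SE 0.27), and neither was a DE gene. The call of cpox depended on the setting. It was a DE gene under 4 of 15 alternatives, with log2 fold changes between -1.25 and -0.60.

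Acute-phase signaling genes, which include the interleukin-6 receptor chains and the transcription factors behind them, held 18 tested of 26, with 8 higher, 10 lower, 0 DE genes and a median of -0.03. The stat3 gene LOC113641145 had 66.0, 30.1 and 24.2 CPM in T_liver, against 25.2, 26.2 and 27.7 CPM in C_liver, and was thus highest in T_liver 1. Others peaked elsewhere, cebpd in T_liver 2 (167 CPM) and cebpa in C_liver 3 (61.8 CPM). The log2 fold change of cebpa was the largest of this list, at -1.69 (SE 0.77). With 1 library left out it lay between -2.10 and -0.18, and cebpa was a DE gene under 5 of 16 alternatives. Of 10 other antimicrobial genes, the hyphenated LEAP2 copies included, 5 were tested, with 1 higher, 4 lower, 0 DE genes and a median of -0.70.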

How the data were processed

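The authors deposited 1 table with counts and FPKM values of 28288 genes in 6 liver libraries (3 of T_liver, 3 of C_liver). For C_liver 1, C_liver 3 and T_liver 3 the counts summed to more than the valid reads that the paper lists. They are therefore not 1 count per valid read, and how they were derived is not given in the sources used here. The deposited FPKM values came from the authors and scale counts by gene length and library size, with genes without a count listed at 0.0001. Reads were aligned to the T. fulvidraco reference with HISAT. The submitters' processing notes name HISAT2 2.0, StringTie 1.3.0, Bowtie 0.12.2 and build mm8, which is a mouse build, so scaffold names and positions are given as in the table and the sources used here do not give the counting tool, its strand setting or the fish build. The members and gene lists were chosen with earlier results of these data known.

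The test was run on the 11521 genes whose FPKM averaged 1 or more across all 6 libraries. T_liver was compared with C_liver on the deposited counts by edgeR 4.0.16 (R 4.3.3) with TMM scaling, trended dispersion, the quasi-likelihood test and no covariate. Standard errors were derived from the F statistics. Benjamini-Hochberg adjustment covered all tested genes. CPM of single genes was also put to an exact permutation test (2-sided). The common biological coefficient of variation was 0.426. Values in every library are given for members that were DE genes, the most abundant of each class, every tested hepcidin, LEAP2, serum amyloid, transferrin, transferrin receptor and heme oxygenase gene, and members whose groups did not overlap. Values of further members and of genes outside the members were added after they were seen.

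Alternatives were DESeq2 1.42.0 and its size factors, total-count scaling, edgeR's exact test, limma 3.58.1 on log2(FPKM + 1) and log2(FPKM + 0.1), no filter, a stricter FPKM minimum of 5, a replicate block and each library left out. Leaving out T_liver 1 with C_liver 3, and leaving out the spelling matches, were chosen after seeing the data. The fit was tested on simulated counts drawn from its own dispersions, which cannot show how it handles single libraries that stand apart. Intervals and the floor of 3 counts treat each count as 1 read and cover counting error only. Sequences were not used here.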

Additional observations from a re-analysis of the deposited data

How the results depend on the processing

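LEAP2 (LOC113635119) kept its direction and call under all 16 alternatives, with log2 fold changes from -6.04 to -2.93, and from -6.04 to -3.51 with 1 library left out. It passed the filter only through C_liver. The single DE gene among the members became 0 with adjusted P under 0.05, 1 to 4 with 1 library left out (2 without T_liver 1, 4 without T_liver 2, 3 without T_liver 3 and 3 without C_liver 1) and 2 without T_liver 1 and C_liver 3. Over all tested genes the 358 DE genes became 774 without the filter, 174 at a mean FPKM of at least 5, 190 with limma on log2(FPKM + 1), 231 without T_liver 1 and C_liver 3, 0 with adjusted P under 0.05, and 248 to 643 with 1 library left out (643 without T_liver 2, 628 without C_liver 2). DESeq2 gave 521. Of the 27 members chosen for values in every library, 11 kept direction and call under every alternative, 12 changed sign under at least 1, for 9 of them only with libraries left out, 5 gained a call with 1 library left out (LOC113663630 at -1.71 without T_liver 2 among them), and 0 lost one, while hamp gained one with its sign changed. Over all 42 tested members 7 gained a call in either direction with 1 library left out. LOC113649788 was among them, and so was LOC113647750, with its sign changed. The share of all tested genes that gained a call in this way was not counted. Their DE genes went from 358 to between 248 and 643, so gained calls cannot be read as particular to the members. Signs changed with limma on log2(FPKM + 1) for hamp (-0.46) and LOC113647773 (-0.17), and on log2(FPKM + 0.1) for hamp (-0.75) and LOC113647773 (-0.25). Same-numbered libraries did not deviate together (r = -0.0905, 0.0413 and -0.131 over 11521 genes). With 3 libraries per group this cannot exclude that the numbers pair them. A replicate block gave 329 DE genes with 1 member and turned hamp (-0.54), LOC113647773 (-0.22) and LOC113650136 (0.03). Without T_liver 1 and C_liver 3 the values were -0.16 for cp, -0.06 for hmox2, -5.53 for hamp, 0.35 for LOC113663623, 0.25 for LOC113663630, 0.41 for LOC113636908 and 1.03 for LOC113650136. With 1 library left out, the members that changed sign ranged from -0.40 to 0.40 (LOC113647851), -0.04 to 1.18 (cp), -0.06 to 0.73 (hmox2), -4.94 to 1.67 (hamp), -0.36 to 0.57 (LOC113647773), -0.47 to 0.37 (LOC113649794), -0.93 to 0.23 (LOC113663623), -0.82 to 0.80 (LOC113636908), -0.43 to 0.08 (meltf), -0.18 to 0.79 (LOC113660336) and -0.79 to 0.83 (LOC113650136). The causes were not tested. Group means of members with large spread, hepcidin and ceruloplasmin among them, rest on single libraries. Depth limits the members below the filter and the libraries at or near the floor of 3 counts for LEAP2, hamp and LOC113634503.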
